A study of Mus musculus with 21 samples.

Results

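RPA peaks listed after ATR inhibition alone were set against those listed after the DMSO vehicle. All 56 peaks of the ATR inhibitor (ATRi) list and all 46 peaks of the DMSO list were taken, 102 of the 683 peaks of the series. The 2 lists differed in shape as well as in place: 18 ATRi peaks and no DMSO peak were wider than 1 kb, 4 ATRi peaks and no DMSO peak had the summit inside a tRNA gene, and 3 sites stood in both lists.

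RPA is the protein complex that coats single-stranded DNA in eukaryotic cells, and RPA32 is its middle subunit. ATR is the checkpoint kinase that is recruited to RPA-coated DNA at stalled replication forks, restrains the firing of further origins and keeps stalled forks from breaking down. Chromatin regions bound by RPA are therefore used as a readout of exposed single-stranded DNA, including DNA at forks that have stalled or been resected.

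The cells were mouse embryonic fibroblasts labelled ATR+/-, immortalized by passaging, and both groups carried this genotype, so the DMSO group was not a wild-type control. One group received DMSO for 18 h and the other 1 µM of an ATR inhibitor, named ATR-45 in the labels, for 18 h. The inhibitor group had 2 ChIP and 2 input libraries and the DMSO group 2 ChIP libraries and 1 input, among 21 libraries of 6 treatment groups. The labels name 2 lots of the RPA32 antibody in each group, 1 of them common to both, and they do not say whether the libraries of a group came from separate cultures.

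Each list was made from all libraries of its group, so it carried no value per replicate. The spread between replicates could not be measured and no difference between the lists could be tested. The intervals below are exact 95% intervals that count peaks within a list and cover counting error only. Read depth is unknown. The groups also differ in inputs, 2 against 1, and the part of this in the differences below was not tested. The labelled fibroblast identity could not be checked either, because the peaks measure bound DNA and not expression: of 15 fibroblast genes, 0 held a peak of either list.

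The lists ended at different levels of significance. The −log10 p of the authors' peak caller ran from 29.9 to 90.3 in the ATRi list, with a median of 41.1. In the DMSO list it ran from 10 to 24.5, with a median of 11.1. The weakest ATRi peak was thus more significant than the strongest DMSO peak, and at a common −log10 p of at least 20 the lists held 56 and 3 peaks. In the ATRi list 12 peaks reached a −log10 p of 60. A site missing from one list may still have had signal below the level at which that list ended.

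ATRi peaks were wider. Their median width was 296 bp (95% interval 223 to 861 bp), with quartiles of 170 and 1151.5 bp and a range of 124 to 2494 bp. DMSO peaks had a median width of 95.5 bp (88 to 104 bp), quartiles of 84.2 and 108 bp and a range of 80 to 292 bp. The ATRi peaks together covered 41.4 kb and the DMSO peaks 5.34 kb. Of the DMSO peaks, 6 had a width of exactly 80 bp, the narrowest of the list. The widths of single peaks overlapped between 124 and 292 bp, while the intervals of the medians did not overlap. With a −log10 q of at least 10 in both lists, 5 DMSO peaks were left, and their median width of 234 bp lay within the ATRi interval. All of them stood at the start of chromosome 9 except the peak nearest Mgam, which was 104 bp wide, so this median describes mainly 1 locus.

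The ATRi widths left a gap, with no peak between 307 and 544 bp. A limit of 400 bp, set after the widths were seen, gave 29 narrow peaks with a median width of 170 bp and 27 broad peaks with a median width of 1159 bp. The broad peaks held 35.8 kb of the covered sequence and the narrow peaks 5.6 kb. Both kinds were found among the peaks of highest fold: near Gata4, which encodes a zinc finger transcription factor of heart and endoderm, a broad peak of 2362 bp stood at 15.9-fold, and in Cd163l1, a scavenger receptor gene, a narrow peak of 190 bp stood at 14.1-fold. A fold here is the authors' ratio of ChIP to input signal where the peak is highest, and it ranks peaks within a list only. Broad and narrow ATRi peaks had median folds of 10.1 (95% interval 8.95 to 11.5) and 7.32 (5.12 to 8.84).

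**Figure D1:**
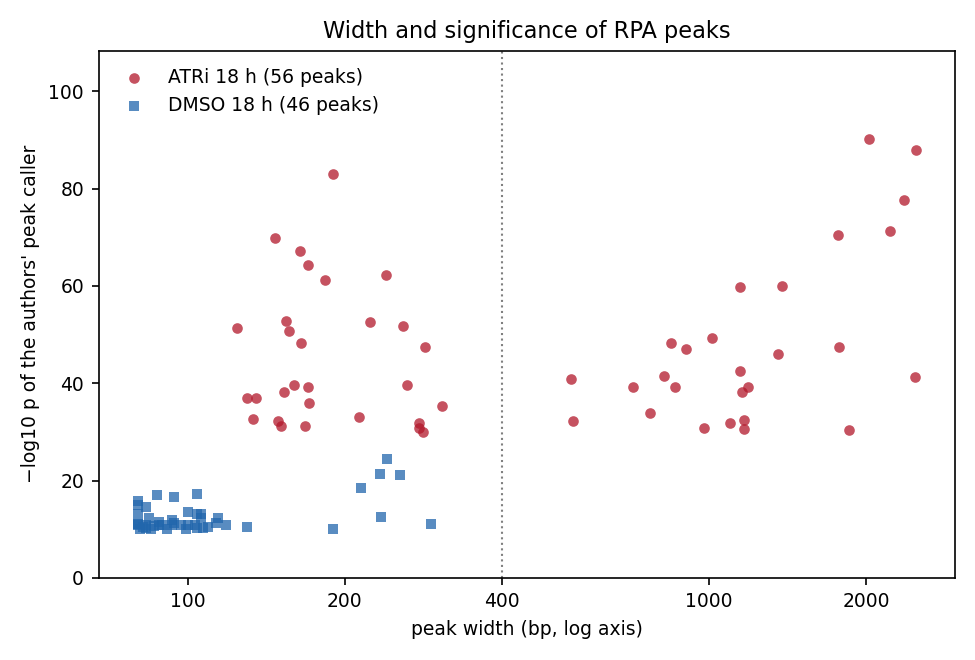
Each point is a peak, placed by its width in bp (log axis) and by the −log10 p of the authors' peak caller, for the ATRi 18 h list (circles) and the DMSO 18 h list (squares). The dotted line marks 400 bp. All ATRi points lie above all DMSO points, and no ATRi point lies between 307 and 544 bp.

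Width, fold and significance ranked the peaks differently in the 2 lists. Across the 56 ATRi peaks Spearman's rho was 0.422 for width and fold, 0.647 for fold and −log10 p, and 0.134 for width and −log10 p. Across the 46 DMSO peaks the same values were −0.326, −0.0482 and 0.176. These are descriptions across peaks of 1 pooled list, which share libraries and depth and are not independent. Without the 11 DMSO peaks of chromosome 9, which had the lowest median fold at 2.19, rho for width and fold was −0.111 and that for fold and −log10 p was 0.251.

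Several peaks carried the same fold and the same −log10 p. In the ATRi list the peaks in Egr1, Stam2 and Cldn34-ps and a narrow peak near Klf15 all had a fold of 10.06 and a −log10 p of 39.2, although their widths ran from 170 to 1187 bp. In the DMSO list 5 peaks shared a fold of 6.48 and a −log10 p of 10.9. Ranks within such a set are ties.

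Summit positions also differed with width. The median summit stood at 52.4% of the peak's width from its left edge in the ATRi list and at 49.2% in the DMSO list, so both lists were centred near the middle. The spread was not alike among the ATRi peaks. Narrow ATRi peaks had quartiles of 47.3 and 55.5%, and 1 of 29 had its summit within the outer 25% of the peak on either side (3.45%, 95% interval 0.0873 to 17.8%). Broad ATRi peaks had quartiles of 14.1 and 68.6%, and 16 of 27 had it there (59.3%, 38.8 to 77.6%). In the DMSO list 7 of 46 did so (15.2%, 6.34 to 28.9%), 5 of them among the 11 peaks at the start of chromosome 9. Broad peaks were thus often lopsided, with a median of 179 bp from the summit to the nearer edge against a median width of 1159 bp. The share among narrow peaks is limited by width itself. No ATRi summit stood under 51 bp from an edge, and in a peak of the median narrow width, 170 bp, such a summit is not in the outer 25%.

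**Figure D2:**
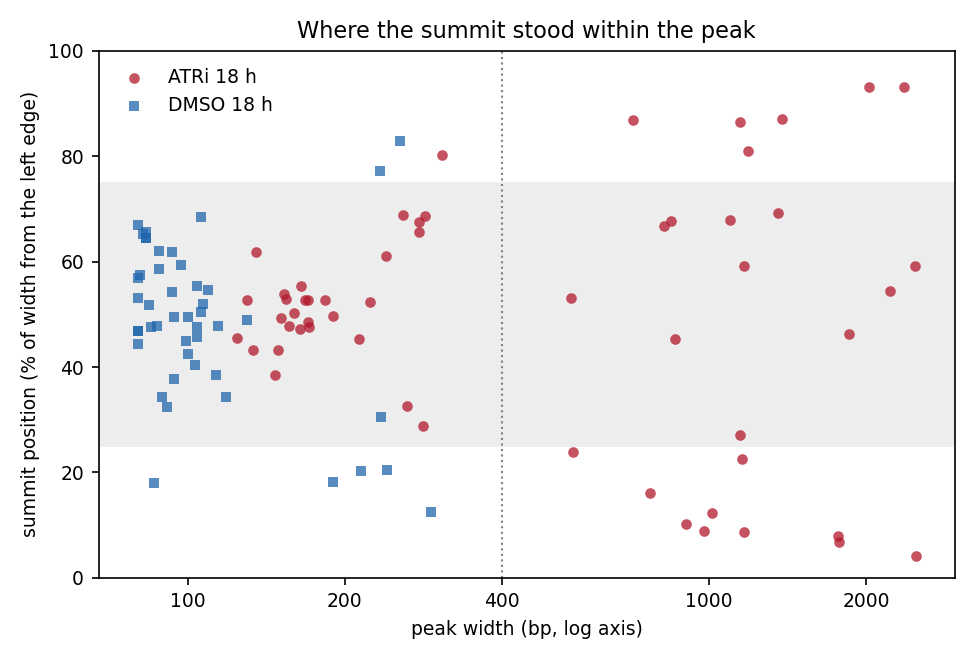
Summit position as a percentage of peak width from the left edge, against peak width in bp (log axis), for ATRi 18 h (circles) and DMSO 18 h (squares) peaks. The grey band marks the middle, between 25 and 75%, and the dotted line 400 bp. Beyond 400 bp 16 of 27 ATRi peaks lie outside the band.

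The broad peaks included 4 neighbouring pairs under 1 kb apart. In all 4 the summits faced the gap between the peaks, and 7 of the 8 paired peaks had the summit in the outer 25%. Beside Gata4 on chromosome 14 the left peak ran from 63278003 to 63280364 and the right one from 63280658 to 63281668. Their summits stood at 93.2% and 12.2% of their widths, 161 and 123 bp from the inner edges, and the 293 bp gap between the peaks left 578 bp between summits. Folds were 15.9 on the left and 11.7 on the right, and the nearest end of Gata4 was 8491 bp from the left summit.

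Beside Gp9, which encodes a subunit of the platelet receptor for von Willebrand factor, the peaks ran from 87773279 to 87775302 and from 87775695 to 87777467 on chromosome 6. Summits stood at 93.2% and 6.8%, 138 and 120 bp from the inner edges. The right summit was 316 bp from Gp9, and the right peak ran on into the gene, whose annotated body begins at 87776131. This pair was nearly symmetric, at 2024 and 1773 bp wide and 11.7 and 9.79-fold.

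Beside Gdf3, a ligand gene of the TGF-beta family, the peaks ran from 122614017 to 122615373 and from 122615996 to 122618489 on chromosome 6. The right peak was the widest of both lists, 2494 bp, and had its summit 103 bp from its left edge, at 4.15% of its width. The left summit stood at 69.2%, 417 bp from the inner edge. The summit was therefore nearer the inner edge on the right side of this gap than on the left.

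The pair nearest Slc7a10, which encodes an amino acid transporter, lay in a predicted long noncoding gene on chromosome 7, from 35158484 to 35159865 and from 35160843 to 35162001. It had the widest gap, 977 bp, with 1417 bp between summits, which stood at 87% and 22.5%. None of the 4 pairs held a DMSO peak. A single peak spanned none of the 4 gaps in the ATRi+aphidicolin 18 h list.

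Klf15, a zinc finger transcription factor gene, had 3 peaks in a row on chromosome 6. A narrow peak of 171 bp (90517454 to 90517624, 9.51-fold) and one of 170 bp (90518398 to 90518567, 10.1-fold) were followed by a broad peak of 1767 bp (90518712 to 90520478, 11.1-fold). The broad peak had its summit at 8% of its width, on the side of the narrow peaks. Of the 19 broad peaks outside the pairs, 6 had the summit in the left 25% of the peak, 3 in the right 25% and 10 between.

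The remaining ATRi peaks of high fold stood alone. Near Rnf145, an E3 ubiquitin ligase gene, a peak of 2229 bp on chromosome 11 (44501477 to 44503705) had 15-fold enrichment and a nearly central summit, at 54.4%. Near Spon1, which encodes an extracellular matrix protein, a narrow peak of 154 bp on chromosome 7 (113703691 to 113703844) had 12.2-fold enrichment at 62226 bp from the gene. Near Rgma, a repulsive guidance molecule gene, a peak of 2481 bp was the second widest and ranked 28th of 56 by fold, at 8.95-fold. Great width and high fold did not always go together.

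A group of 6 ATRi peaks stood within 7.21 kb at the start of chromosome 10, from 3109899 to 3117110, with widths of 223 to 544 bp and folds of 4.32 to 8.84. All 11 DMSO peaks of chromosome 9 stood near its start in sets of 3 (3000863 to 3002329) and 8 (3015257 to 3038240), with folds of 1.92 to 2.77. These 11 peaks held the lowest folds of the DMSO list except for the peak nearest Galc at 1.81-fold and the one in Zc3h7a at 2.26-fold, yet their −log10 p reached 24.5, the highest of the list. Joining peaks under 10 kb apart left 44 ATRi and 37 DMSO sites. Peaks were listed on 14 chromosomes in both lists, on chromosomes 5, 10, 11 and 18 in the ATRi list alone, on chromosome 1 in the DMSO list alone, and on chromosome 19 in neither. Chromosome 10 held 9 ATRi and 0 DMSO peaks, and chromosome 9 held 1 and 11.

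At tRNA genes, 4 of 56 ATRi peaks had the summit inside the transcribed gene itself (7.14%, 95% interval 1.98 to 17.3%), against 0 of 46 DMSO peaks (0%, up to 7.71%), and the intervals overlap. tRNA genes are short genes transcribed by RNA polymerase III from promoter elements that lie within the gene, the A box and the B box. The 408 annotated tRNA genes make up 0.00116% of the annotated chromosome span. All 4 peaks were broad, so a width of 821 to 1168 bp surrounded a gene of under 100 bp. None stood in a pair.

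The peak of highest fold among them lay in Polg, which encodes the catalytic subunit of the mitochondrial DNA polymerase, on chromosome 7 from 79466126 to 79467270 (1145 bp, 13.3-fold, rank 6 of 56). Its summit, at 79466436, fell within the arginine tRNA gene n-TRtcg5 (79466419 to 79466491) and 163 bp upstream of an annotated Polg start. This was the only annotated promoter window, of 32851 reaching from 250 bases before to 50 after a start, that a peak of either list overlapped among the chromosomes with such windows, which held 55 of the 56 ATRi peaks; the ATRi peak left out, in Egr1, covers the annotated start of its gene. Its sequence is shown because it is the stretch under a summit that could be read: first the tRNA gene with 30 bases on each side, at chr7:79466389-79466521, with the tRNA gene in capitals, then the tRNA gene alone at chr7:79466419-79466491 with its B box match in capitals. Both are plus strand sequence of the RefSeq assembly GRCm38.p6, whose chromosome positions are those of mm10.
Window around n-TRtcg5: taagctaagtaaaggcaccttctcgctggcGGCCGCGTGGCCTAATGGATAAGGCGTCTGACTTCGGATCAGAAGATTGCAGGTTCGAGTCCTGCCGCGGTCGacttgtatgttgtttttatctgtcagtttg
n-TRtcg5: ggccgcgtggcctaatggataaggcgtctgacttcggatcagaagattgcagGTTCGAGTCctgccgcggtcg

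The motif searched was GTTCGANTC, on both strands. It matched once in the tRNA gene, starting at base 53 of its 73 bases, and stood in 55 of the 32851 promoter windows (0.167%). A match describes the letters and is not a measured binding site.

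The other 3 tRNA peaks lay outside protein-coding genes. On chromosome 7 a peak of 845 bp (120834963 to 120835807, 11.5-fold) had its summit at 120835534, inside the leucine tRNA gene n-TLtag1 (120835479 to 120835560). On chromosome 11 a peak of 821 bp (69124070 to 69124890, 10.4-fold), 564 bp from the transcriptional repressor gene Hes7, had its summit in the glutamine tRNA gene n-TQctg6 (69124607 to 69124678) and also covered n-TLtag3. On chromosome 2 a peak of 1168 bp (122377336 to 122378503, 8.09-fold), 8880 bp from Shf, had its summit in the histidine tRNA gene n-THgtg5 (122377968 to 122378039) and also covered n-THgtg3. The arginine, leucine, glutamine and histidine genes differ in anticodon, and in the peaks that covered 2 tRNA genes the summit still fell inside 1 of them. In the ATRi+aphidicolin 18 h list, of 327 peaks, all 7 peaks at tRNA genes likewise had the summit inside the gene. The other lists made with the inhibitor held 0 peaks at tRNA genes: 0 of 65 with aphidicolin for 9 h and 0 of 188 with Timeless knockdown.

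**Figure D3:**
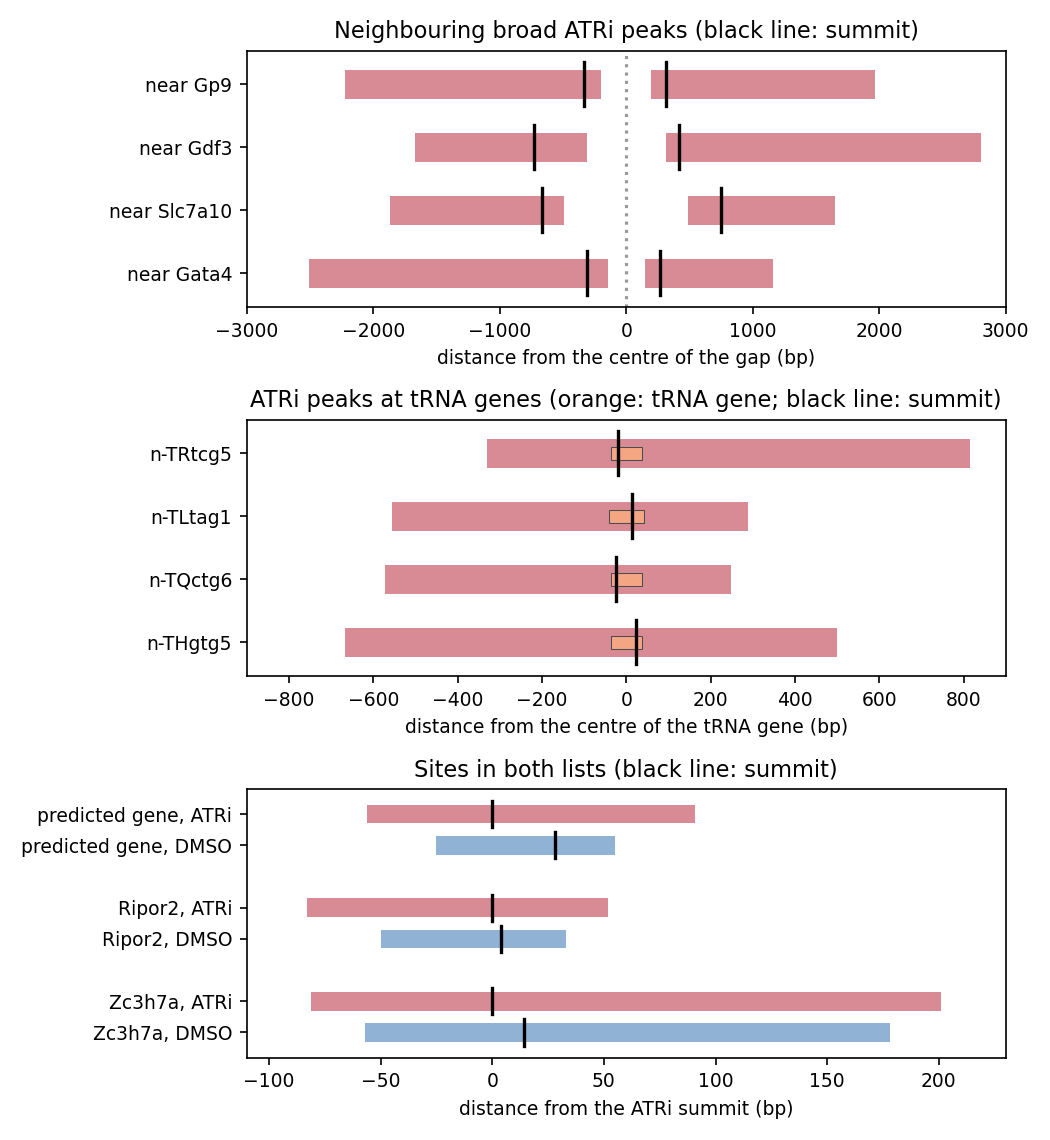
Maps to scale of single sites, with bars for peaks and black lines for summits. Top, the 4 neighbouring broad ATRi peak pairs by distance in bp from the centre of the gap, with every summit on the side facing the gap; middle, the 4 ATRi peaks at tRNA genes by distance in bp from the centre of the tRNA gene, with every summit inside it; bottom, the 3 sites of both lists by distance in bp from the ATRi summit, each DMSO peak lying within the ATRi peak.

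The 3 shared sites made up 5.36% of the ATRi list (95% interval 1.12 to 14.9%) and 6.52% of the DMSO list (1.37 to 17.9%). None of the 3 was left when both lists were held to a −log10 q of at least 10 or to the lowest −log10 p of the ATRi list. At each of them the whole DMSO peak lay within the ATRi peak, and all 3 ATRi peaks were narrow. In Ripor2, which encodes an inhibitor of the small GTPase RhoA, the ATRi peak on chromosome 13 ran from 24726161 to 24726295 and the DMSO peak from 24726194 to 24726276. The summits were 4 bp apart, at 24726244 and 24726248. The peak ranked 45th of 56 by fold in the ATRi list (5.65-fold, −log10 p 36.9) and 33rd of 46 in the DMSO list (3.58-fold, −log10 p 10.9).

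In Zc3h7a, a CCCH zinc finger gene, the ATRi peak on chromosome 16 ran from 11144029 to 11144310 and the DMSO peak from 11144053 to 11144287, with summits 14 bp apart. It ranked 55th in the ATRi list, at 3.06-fold, and 39th in the DMSO list, at 2.26-fold. The third site lay in a predicted protein-coding gene on chromosome 4, at 63602212 to 63602358 in the ATRi list and 63602243 to 63602322 in the DMSO list, with summits 28 bp apart. It ranked 7th in the ATRi list, at 12.6-fold with a −log10 p of 69.8, and 20th in the DMSO list, at 5.87-fold with a −log10 p of 14.9. Of the 3 shared sites, this was the one among the 10 highest folds of a list.

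The other sites of the 2 lists were far apart. Beyond the 3 shared sites the smallest distance between an ATRi and a DMSO peak was 484283 bp, on chromosome 15 between the peaks nearest Mtss1 and Trib1. No further ATRi peak lay within 100 kb of a DMSO peak, and 16 lay on chromosomes with no DMSO peak. The lists hold 56 and 46 peaks over an annotated span of 2612.2 Mb, so large distances between them carry little information about the sites.

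Of the ATRi summits 26 of 56 lay in an annotated gene of any kind (46.4%, 95% interval 33 to 60.3%) and 22 of 46 DMSO summits did (47.8%, 32.9 to 63.1%). Annotated genes cover 47.6% of the span, which lies inside both intervals. Protein-coding genes held 15 ATRi summits (26.8%, 15.8 to 40.3%) and 15 DMSO summits (32.6%, 19.5 to 48%), and cover 39.4% of the span. The shares in genes did not differ between the lists beyond their counting intervals. Neighbouring peaks lowered these shares. Without the 11 DMSO peaks of chromosome 9 they were 62.9% (44.9 to 78.5%) in any gene and 42.9% (26.3 to 60.6%) in coding genes. Among the 37 ATRi peaks with no other ATRi peak under 10 kb away they were 59.5% (42.1 to 75.2%) and 40.5% (24.8 to 57.9%). These intervals too overlap and hold the shares of the span. Exons and introns cannot be given because the gene table held gene bodies only.

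The protein-coding genes with an ATRi summit, by falling fold, started with Cd163l1 and Polg, followed by the predicted gene on chromosome 4. At 10.06-fold came Egr1, an immediate early gene that encodes a zinc finger transcription factor, Stam2, which encodes a subunit of the endosomal sorting complex, and Cldn34-ps on chromosome X. The Egr1 peak (chromosome 18, 34861030 to 34861890) reached from before the annotated gene, which starts at 34861207, into it, with the summit at 34861419. The Stam2 peak (chromosome 2, 52695837 to 52696551) was 715 bp wide.

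Between 9 and 7-fold stood Myo5a, which encodes a myosin that moves cargo along actin (chromosome 9, 278 bp, 8.78-fold), Shisa6, whose product modulates AMPA-type glutamate receptors (chromosome 11, 183 bp, 8.75-fold), Prkdc, Clec2e, a C-type lectin gene (chromosome 6, 259 bp, 8.25-fold), and Urgcp (chromosome 11, 1855 bp, 7.41-fold). Prkdc encodes the catalytic subunit of DNA-PK, the kinase of non-homologous end joining, and its peak ran from 15671728 to 15672704 on chromosome 16 (977 bp, 8.59-fold). Below them stood Ripor2, Zc3h7a and Dlgap2, which encodes a scaffold protein of the postsynaptic density (chromosome 8, 547 bp, 2.87-fold, the lowest of the list). The genes named here ranged from 3.8 kb for Egr1 to 757.7 kb for Dlgap2.

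The DMSO list named a different set. Its gene of highest fold was Elf2, an ETS transcription factor gene (93 bp, 6.6-fold), followed by Frmd4b (80 bp, 6.38-fold), Tulp3, which encodes an adaptor of ciliary trafficking (103 bp, 6.3-fold), and Gtf3c3, which encodes a subunit of transcription factor TFIIIC (chromosome 1, 54411799 to 54411889, 5.98-fold). Kif6, a kinesin gene, stood at 5.95-fold, Timmdc1, which encodes an assembly factor of respiratory complex I, and Zfp980 at 5.82-fold each, and Brd3, which encodes a reader of acetylated histones, at 5.79-fold. Akr1b3, the aldose reductase gene, stood at 5.52-fold, Dpp9, a dipeptidyl peptidase gene, at 5.33-fold and Sp110, a nuclear body protein gene, at 5.24-fold. These 11 peaks were 80 to 130 bp wide. The 3 genes that held a peak of both lists were those of the 3 shared sites.

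The median distance to the nearest coding gene depended on 1 group of DMSO peaks. The median distance from a summit to the nearest protein-coding gene, with 0 for summits inside one, was 6031 bp for ATRi (95% interval 2695 to 11342 bp) and 32820.5 bp for DMSO (3526 to 218794 bp), and these intervals overlap. Without the 11 DMSO peaks at the start of chromosome 9 the DMSO median was 5588 bp (0 to 33436 bp), below that of ATRi. Outside a coding gene but under 10 kb away lay 20 of 56 ATRi summits (35.7%, 23.4 to 49.6%) and 5 of 46 DMSO summits (10.9%, 3.62 to 23.6%). The ATRi share too depended on neighbouring peaks. Of the 37 ATRi peaks with no other ATRi peak under 10 kb away, 8 lay there (21.6%, 9.83 to 38.2%), an interval that overlaps that of DMSO. At 100 kb or more lay 1 ATRi summit (1.79%, 0.0452 to 9.55%) and 19 DMSO summits (41.3%, 27 to 56.8%). The group at the start of chromosome 9 supplied 11 of those 19. Without it 8 of 35 DMSO summits lay that far (22.9%, 10.4 to 40.1%), an interval above that of all 56 ATRi peaks. It overlaps the interval of the 37 ATRi peaks with no other ATRi peak under 10 kb away, of which 1 lay that far (2.7%, 0.0684 to 14.2%). Under 10 kb lay 5 of the 35 DMSO summits (14.3%, 4.81 to 30.3%), whose interval overlaps that of ATRi.

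**Figure D4:**
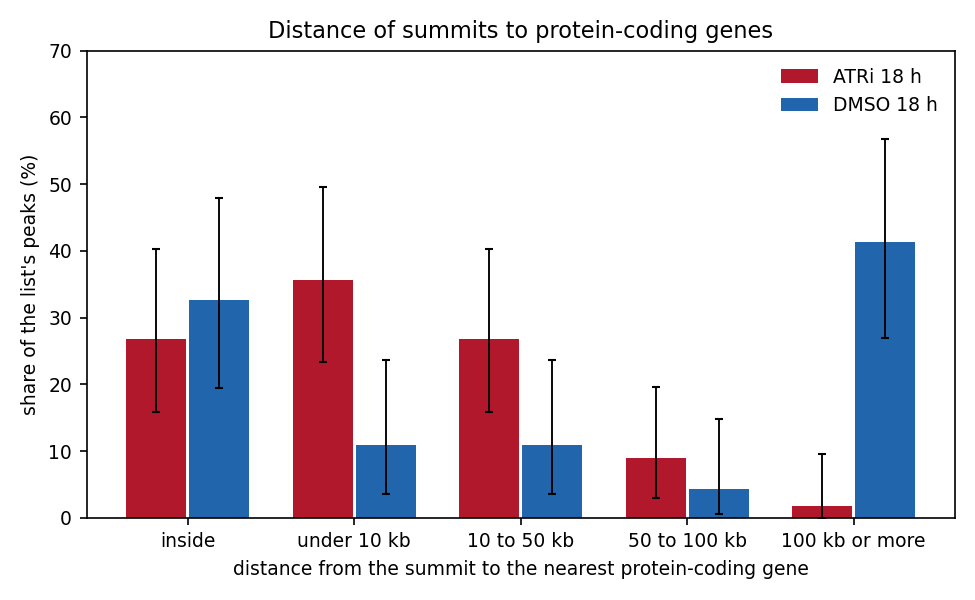
Share of each list's peaks (%) by the distance from the summit to the nearest protein-coding gene, for ATRi 18 h (56 peaks, red) and DMSO 18 h (46 peaks, blue), with exact 95% intervals over peaks as error bars. The lists lie close together inside genes, and DMSO is higher at 100 kb or more, where 11 of its 19 peaks stand at the start of chromosome 9.

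The intergenic ATRi peaks near genes included Pik3r6, a subunit gene of PI3-kinase gamma, at 591 bp (124 bp wide, the narrowest ATRi peak, 9.1-fold), Ptgr2, a prostaglandin reductase gene, at 2568 bp (1149 bp wide, 10.6-fold), and Vmn1r66, a vomeronasal receptor gene, at 9708 bp (156 bp wide, 11-fold). The peak nearest Asmt, a gene of melatonin synthesis on chromosome X, was the 1 ATRi peak beyond 100 kb, at 132031 bp. In the DMSO list the peaks of highest fold were nearest Slc24a5, a cation exchanger gene of melanosomes, at 176847 bp (80 bp wide, 8.17-fold) and Trib1, a pseudokinase gene, at 7863 bp (104 bp wide, 7.18-fold). Others stood at 414376 bp from Tmeff2 and 304428 bp from Ankrd50.

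Noncoding genes alone held 11 ATRi summits and 7 DMSO summits. Of the 11, 3 lay in tRNA genes, 1 in the pseudogene Mup-ps1 of the major urinary protein family, and 7 in genes known by number only. Of the 7 DMSO summits, 1 lay in Snhg14, a long imprinted transcript that hosts small nucleolar RNAs (chromosome 7, 59768790 to 59768871, 3.75-fold), and 1 in the pseudogene Mgam2-ps (chromosome 6, 40817772 to 40817875, 6.97-fold, rank 3 of 46).

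Some narrow ATRi peaks combined a modest fold with high significance. The Mup-ps1 peak (chromosome 4, 60081735 to 60081904, 170 bp) had 6.59-fold enrichment, rank 41 of 56, and a −log10 p of 64.3. The peak near Ccdc66, at 19807 bp on chromosome 14 (27528240 to 27528403, 164 bp), had 7.5-fold enrichment and a −log10 p of 67.1. By contrast the broad peak nearest Mtss1, which encodes an actin and membrane binding protein (chromosome 15, 59179535 to 59180630, 1096 bp), had a higher fold, 8.78, with a −log10 p of 31.8. Fold and −log10 p ranked together more closely among broad peaks (rho 0.889) than among narrow peaks (rho 0.58), as a description across peaks.

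The 5 lowest ATRi folds belonged to narrow peaks with 1 exception, the Dlgap2 peak. The peak near Taar6, a trace amine receptor gene, stood at 4.22-fold (3009 bp away, 168 bp wide) and that nearest Vmn2r87, a vomeronasal receptor gene, at 3.33-fold (97522 bp away, 153 bp wide). A pair of narrow peaks on chromosome X, in a gene known by number only and nearest Zmat1 (135049144 to 135049356 and 135052482 to 135052759), stood at 4.92 and 5.12-fold.

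Genes of the pathways that the treatment addresses were mostly without a listed peak. Of 18 genes of the ATR pathway, 0 held a peak of either list or lay within 50 kb of one, and the same held for 20 common fragile site genes. Of 18 genes of the replication fork none held a peak, and 1 lay within 50 kb of an ATRi peak: Mcm4, which encodes a subunit of the replicative helicase, beside the peak in Prkdc. Of 16 immediate early genes, Egr1 held an ATRi peak and none held a DMSO peak. Over all 21631 protein-coding genes, a peak touched 16 (0.074%) in each list, and 94 (0.435%) lay within 50 kb of an ATRi peak and 52 (0.24%) within 50 kb of a DMSO peak, so an absence from gene lists of this size carries little information.

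Most ATRi peaks stood again in other lists made with the inhibitor. These lists differed in size: 327 peaks for ATRi with aphidicolin 18 h, 188 with Timeless knockdown and 65 with aphidicolin 9 h. A longer list offers more sites to overlap, and the part of list size in the shares below was not tested. Of 29 narrow ATRi peaks 29 overlapped the list of ATRi with aphidicolin for 18 h (95% interval 88.1 to 100%), 27 that of ATRi with Timeless knockdown (93.1%, 77.2 to 99.2%) and 20 that of ATRi with aphidicolin for 9 h (69%, 49.2 to 84.7%). Of 27 broad peaks 25 (92.6%, 75.7 to 99.1%), 19 (70.4%, 49.8 to 86.2%) and 15 (55.6%, 35.3 to 74.5%) did so. Each share was lower for broad than for narrow peaks, with intervals that overlap. The peaks in Egr1 and at n-TQctg6 stood in no other list, and both were broad. The Polg peak, 6th by fold, stood again in the list of ATRi with aphidicolin for 18 h alone.

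DMSO peaks rarely stood elsewhere: 37 of 46 overlapped none of the 4 lists of the other treatments (80.4%, 66.1 to 90.6%). The list of aphidicolin alone, among these 4, held 1 peak. DMSO peaks had a median −log10 p of 11.1 against 41.1 for ATRi peaks, and the part of this in the overlap was not tested. The 34 peaks with the highest DMSO folds included 2 that overlapped another list, the shared sites on chromosome 4 and in Ripor2. The 9 that overlapped the ATRi with aphidicolin 18 h list were the 3 shared sites and 6 peaks at the start of chromosome 9. At the Ripor2 site the summits in the other lists stood within 7 bp of the ATRi summit, in lists of ATRi with aphidicolin for 9 h (11.6-fold), for 18 h (6.55-fold) and with Timeless knockdown (16.2-fold), each a value of its own list.

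**Figure D5:**
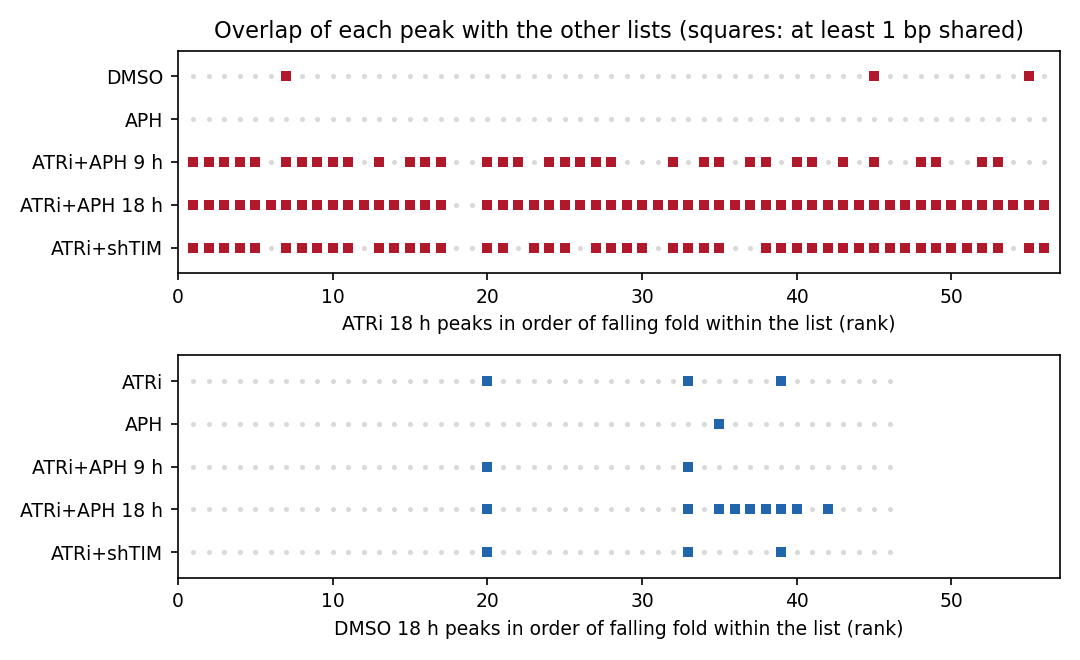
Overlap by at least 1 bp of each ATRi 18 h peak (top, red) and each DMSO 18 h peak (bottom, blue) with the 5 other lists, in order of falling fold within the list; filled squares mark an overlap and grey dots none. Most ATRi peaks have squares in the rows of ATRi with aphidicolin and with Timeless knockdown, while 37 of 46 DMSO peaks have none outside the ATRi row.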

How the data were processed

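RPA32 ChIP-seq peak lists of 2 conditions were compared. Per the labels' protocols, chromatin was sheared to under 4 kb before precipitation and libraries carried DNA of about 200 bp, which limits how finely an edge or summit is placed. MACS2 2.1.0, STAR 2.5.2a, Picard 1.141, SAMtools 0.1.19, bcl2fastq 2.17.1.14 and the build mm10 are listed in the submitters' processing notes. The settings and the threshold of each list are not given in the sources used here. The names of the peaks record that a condition's ChIP libraries were pooled and set against its inputs, of which the DMSO group had 1. Per peak, the authors' lists give a fold enrichment (a ratio of ChIP over input at the summit), the −log10 p-value and −log10 q-value, and the summit offset. Serial numbers in the deposited peak names reached 2111 for ATRi and 10689 for DMSO, so each list is part of a longer numbered one. The labels give 2 ChIP libraries per condition.

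Widths, summit positions (the centre of the summit base as a percentage of width), overlaps of at least 1 bp and distances were computed with Python 3.11.15, pandas 2.3.3, numpy 2.4.6 and scipy 1.17.1 and checked on simulated data. Genes were 49554 RefSeq entries on GRCm38.p6, 21631 of them protein-coding, over a span of 2612.2 Mb; sequence was read from RefSeq promoter windows alone, and a whole genome was not used here. Coordinates are 1-based. Shares have exact Clopper-Pearson intervals and medians exact binomial intervals, at 95%. No test was made because each condition has 1 pooled list. Named peaks are, for each list, those among the 10 of highest fold, 5 widest and 5 of lowest fold, those in protein-coding genes or within 1 kb of a tRNA gene, shared peaks, and ATRi peaks in no other list; peaks named beyond this rule (at or near Pik3r6, Ptgr2, Vmn1r66, Asmt, Mup-ps1, Ccdc66, Mtss1, Zmat1, Snhg14, Klf15 and the second peaks of pairs) were chosen after their values were seen. Peaks outside genes carry the name of the closest coding gene. Genes known by Gm or Rik numbers alone were counted and not named. A further ATRi peak that the rule names is counted and not reported here. The members and gene lists were chosen with earlier results of these data known. Alternatives were stricter −log10 q and p limits, joined neighbours, other definitions of overlap and of gene location, and the DMSO list without the start of chromosome 9.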

Additional observations from a re-analysis of the deposited data

How the results depend on the processing

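Of 65 alternative values, 55 stayed within the counting interval of the reported value or within 1.5 times a reported count. Part of these could not have moved. All 56 ATRi peaks met the −log10 q and p limits, so ATRi values other than overlaps were bound to stay the same under them. Leaving out DMSO peaks of chromosome 9 likewise could not change the ATRi width. The 55 is therefore no measure of robustness. With a −log10 q of at least 10, 5 DMSO peaks were left, with a median width of 234 bp, 20% of summits in an annotated gene, 0% in a protein-coding gene, 0 overlapping the ATRi list, and hence 0 ATRi peaks overlapping them. Apart from the peak nearest Mgam, these 5 stood at the start of chromosome 9. At the lowest −log10 p of the ATRi list, 0 DMSO peaks were left and 0 ATRi peaks overlapped, so no other DMSO value could be given there. Joining peaks under 1 kb apart gave 1 DMSO peak wider than 1 kb, at the start of chromosome 9, and an ATRi median width of 547 bp. Among ATRi peaks at or above the list's median fold the median width was 958 bp. The 4 ATRi peaks at tRNA genes were counted under every alternative tried for that count, but none of these could have lowered it. The −log10 q and p limits kept every ATRi peak, none of the 4 had a neighbour to join, and a longer distance can only add peaks.

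No paired analysis was possible because each list pools the libraries of its condition, and leaving out a replicate was not possible for the same reason. Depth per library is unknown, so what it limits in the number and width of DMSO peaks cannot be given.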
